A study of Homo sapiens with 12 samples.

Results

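Integrins and cadherins were examined upon IGF2BP1 knockdown in HepG2 and BE(2)-C cells. The members were all protein-coding genes, present in both deposited tables, whose symbol is that of an integrin alpha subunit, an integrin beta subunit or a numbered cadherin. This rule found 49 genes among 19799 protein-coding genes and 58174 genes in all, namely 18 alpha subunits, 8 beta subunits and 23 cadherins. The set was proposed as integrins and classical cadherins, but 5 of the cadherins (CDH13, CDH16, CDH17, CDH23 and CDH26) do not belong to the classical types, and the genes are therefore called integrins and cadherins here.

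The study depleted the RNA-binding protein IGF2BP1 with a pool of siRNAs and sequenced poly-A RNA. HepG2 is a liver cancer line and BE(2)-C a neuroblastoma line. In each line, cells transfected with a control siRNA (siC, the worm miRNA sequence CEL-miR-239b per the methods) were compared with cells transfected with the IGF2BP1-directed pool (siI1), 72 h after transfection. The siRNAs were used at 15 nM in HepG2 and at 25 nM in BE(2)-C. Each of the 4 groups holds 3 libraries, described in the methods as biological replicates, and all 12 libraries come from transfected cells, so that no untransfected cells enter any comparison. Levels are given as the authors deposited them, in a unit inferred to be fragments per kilobase of gene length, scaled to library size (FPKM). The lines were normalized in separate tables. A level in one line is therefore set beside the other line only as a description.

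Integrins are receptors made of an alpha and a beta subunit that bind extracellular matrix or other cells and couple them to the actin cytoskeleton through talin, kindlin and further adaptors. The alpha subunit largely sets the ligand, with separate groups for laminin, collagen and RGD-containing matrix proteins and a leukocyte group that pairs mainly with ITGB2 or ITGB7. Cadherins join neighbouring cells through calcium-dependent contacts and bind catenins inside the cell, with CDH1 typical of epithelia and CDH2 of neural and mesenchymal cells, as well as of hepatocytes, which hold both.

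The recovered number of fragments on genes ranged from 12852988 to 15721210 per library. HepG2 siI1 replicate 1 stood apart from the others of its group. Its median absolute log2 difference over genes was 0.189 to replicate 2 and 0.199 to replicate 3, whereas replicates 2 and 3 differed by 0.0728. HepG2 results are therefore given with this library and, where stated, without it. IGF2BP1 itself was present at 48.5, 46.6 and 50.8 FPKM in HepG2 siC and at 12.6, 10.7 and 10.7 FPKM in HepG2 siI1. Every siI1 library was below every siC library, with HepG2 siI1 replicate 1 the highest of the depleted ones (log2 fold change −2.10 ± 0.08 SE, limma adjusted p = 7.83e-06, and −2.18 without this library). The control libraries of BE(2)-C held IGF2BP1 at 21.3, 20.6 and 21.6 FPKM and the depleted ones at 4.85, 4.75 and 4.87 FPKM. The groups were again separate (log2 fold change −2.11 ± 0.05 SE, limma adjusted p = 1.48e-05).

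Marker genes matched the names of both lines. All 10 hepatocyte and hepatoblast markers passed the filter in HepG2, with ALB the most abundant (mean 3156 FPKM in siC and 6083 in siI1). All 10 markers of adrenergic neuroblastoma passed it in BE(2)-C, with MYCN the most abundant (mean 1660 FPKM in siC and 1897 in siI1). Conversely, 1 neuroblastoma marker passed the filter in HepG2 (DBH), with a mean level of at most 0.142 FPKM. In HepG2, 6 hepatocyte markers were called higher, led by TF (1.93) and APOA1 (1.70), and 2 lower, TTR (−0.77) and AFP (−0.59). Of the adrenergic markers of BE(2)-C, 2 were called higher, TH (0.61) and CHGA (0.39), and 5 lower, among them HAND2 (−0.73). The part of these marker changes in the results on adhesion genes was not tested, and in bulk libraries fewer cells of a type and less RNA per cell cannot be told apart.

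Upon IGF2BP1 knockdown, most of the integrins and cadherins that were called decreased in HepG2, whereas most of those called in BE(2)-C increased. Genes that reached 0.1 FPKM in 3 or more libraries of a line, out of 6, were tested with limma on log2(FPKM + 0.1), and an adjusted p below 0.05 was called. On this scale the change of genes with low levels is understated. In HepG2, 21 of 49 members were tested, 11 of which were called lower and 4 higher. Among all tested protein-coding genes of HepG2, 30.5% were called lower and 25.3% higher. The median log2 fold change was −0.65 over the 21 tested members and −0.04 over all tested protein-coding genes. Without siI1 replicate 1, the same 11 and 4 members were called, beside 33.7% lower and 28.0% higher among all tested protein-coding genes. The BE(2)-C table had 23 of 49 members tested, 1 of which was called lower and 9 higher. Among these 9, ITGA8 entered the BE(2)-C test through siI1 libraries alone and counts only as a description. There, 19.9% of all tested protein-coding genes were called lower and 15.5% higher, and the medians were 0.26 over the members and −0.01 over all tested protein-coding genes.

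Members that entered the test through one group alone had to differ, and these counts are given as a description. In HepG2 this holds for ITGA7 and CDH26, which reached 0.1 FPKM only in siI1 libraries, and neither was called, although both were higher with voom (adjusted p = 0.00754 and 0.0192) and without the variance trend (0.0207 and 0.00760), and ITGA7 with median centring (0.0449). For BE(2)-C the same applies to ITGA8 and CDH6 (siI1 libraries only) and to ITGB3 (siC libraries only), of which ITGA8 was called. CDH6 was called higher with voom (adjusted p = 0.000391) and without the variance trend (0.0147), and ITGB3 lower with voom (0.00206). The 28 members not tested in HepG2 had at most 14 fragments in any library, with 2 of them, CDH18 and CDH20, at 0 in all 6. The 26 members not tested in BE(2)-C had at most 28 fragments in any library, with 5 of them at 0 in all 6 (CDH13, CDH16, CDH19, ITGAD and ITGAM). Both lines tested 11 members, 10 were tested in HepG2 alone, 12 in BE(2)-C alone and 16 in neither.

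**Figure D1:**
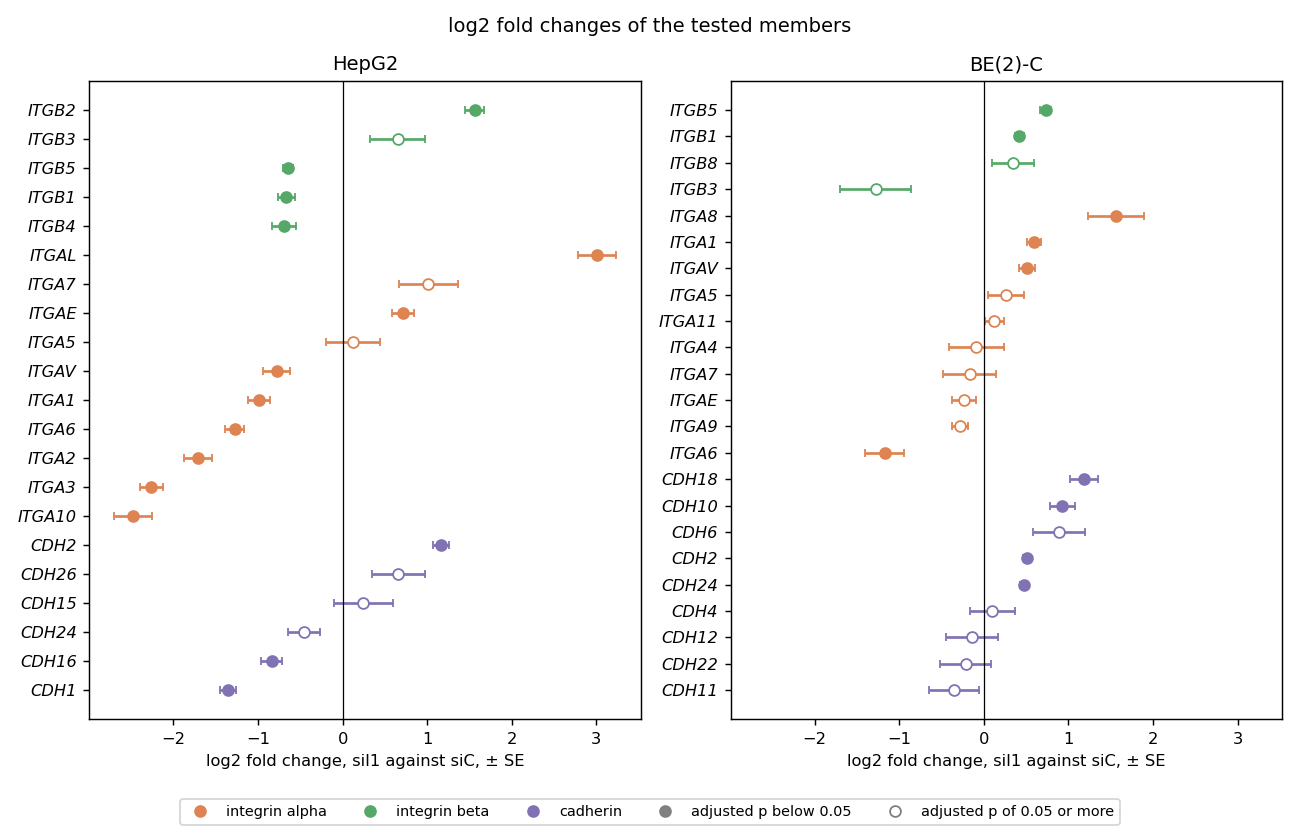
log2 fold changes (siI1 against siC, ± SE) of the 21 members tested in HepG2 and the 23 tested in BE(2)-C. Filled points have a limma adjusted p below 0.05 and open points do not; colours give the families. In HepG2, 11 filled points lie left of 0 and 4 right of it, in BE(2)-C 1 and 9.

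The beta subunits, which carry the link to the cytoskeleton, were dominated by ITGB1, the partner of most alpha subunits, in both lines. ITGB1 (chr10:32887273-33005792, minus strand, GENCODE v44 on hg38) stood at 196, 186 and 199 FPKM in HepG2 siC and at 144, 111 and 114 in siI1. All siI1 libraries lay below all siC libraries, and siI1 replicate 1 was the highest of its group (log2 fold change −0.66 ± 0.10 SE, limma adjusted p = 0.00223, and −0.78 without that library). The neuroblastoma cells held ITGB1 at 34.6, 37.3 and 38.7 FPKM in siC and 47.2, 51.6 and 49.2 in siI1. Here every siI1 library exceeded every siC library (log2 fold change 0.42 ± 0.06 SE, limma adjusted p = 0.00248). ITGB1 made up 83.2 ± 0.602% (SD, n = 3) of the summed FPKM of the beta subunits in HepG2 siC and 81.4 ± 2.76% in siI1. The corresponding shares in BE(2)-C were 63.7 ± 2.80% and 59.1 ± 1.37%.

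ITGB5, the partner of ITGAV in a vitronectin receptor, was the second most abundant beta subunit of both lines. Its level was 32.8, 34.6 and 35.0 FPKM in HepG2 siC and 20.7, 22.8 and 21.9 in siI1, with separate groups (log2 fold change −0.65 ± 0.06 SE, limma adjusted p = 1.67e-04, and −0.61 without siI1 replicate 1). Its BE(2)-C level was 22.1, 18.9 and 19.9 FPKM in siC and 34.3, 33.6 and 33.3 in siI1. The groups were separate in the opposite order, with all siI1 libraries above all siC libraries (log2 fold change 0.73 ± 0.06 SE, limma adjusted p = 4.49e-04). ITGB4, which pairs with ITGA6 in hemidesmosomes, stood at 3.83, 3.31 and 4.11 FPKM in HepG2 siC and 1.94, 2.62 and 2.32 in siI1. It was lower in every siI1 library (log2 fold change −0.69 ± 0.14 SE, limma adjusted p = 0.00724, and −0.58 without siI1 replicate 1), and with at most 22 fragments in any BE(2)-C library it was not tested there.

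**Figure D2:**
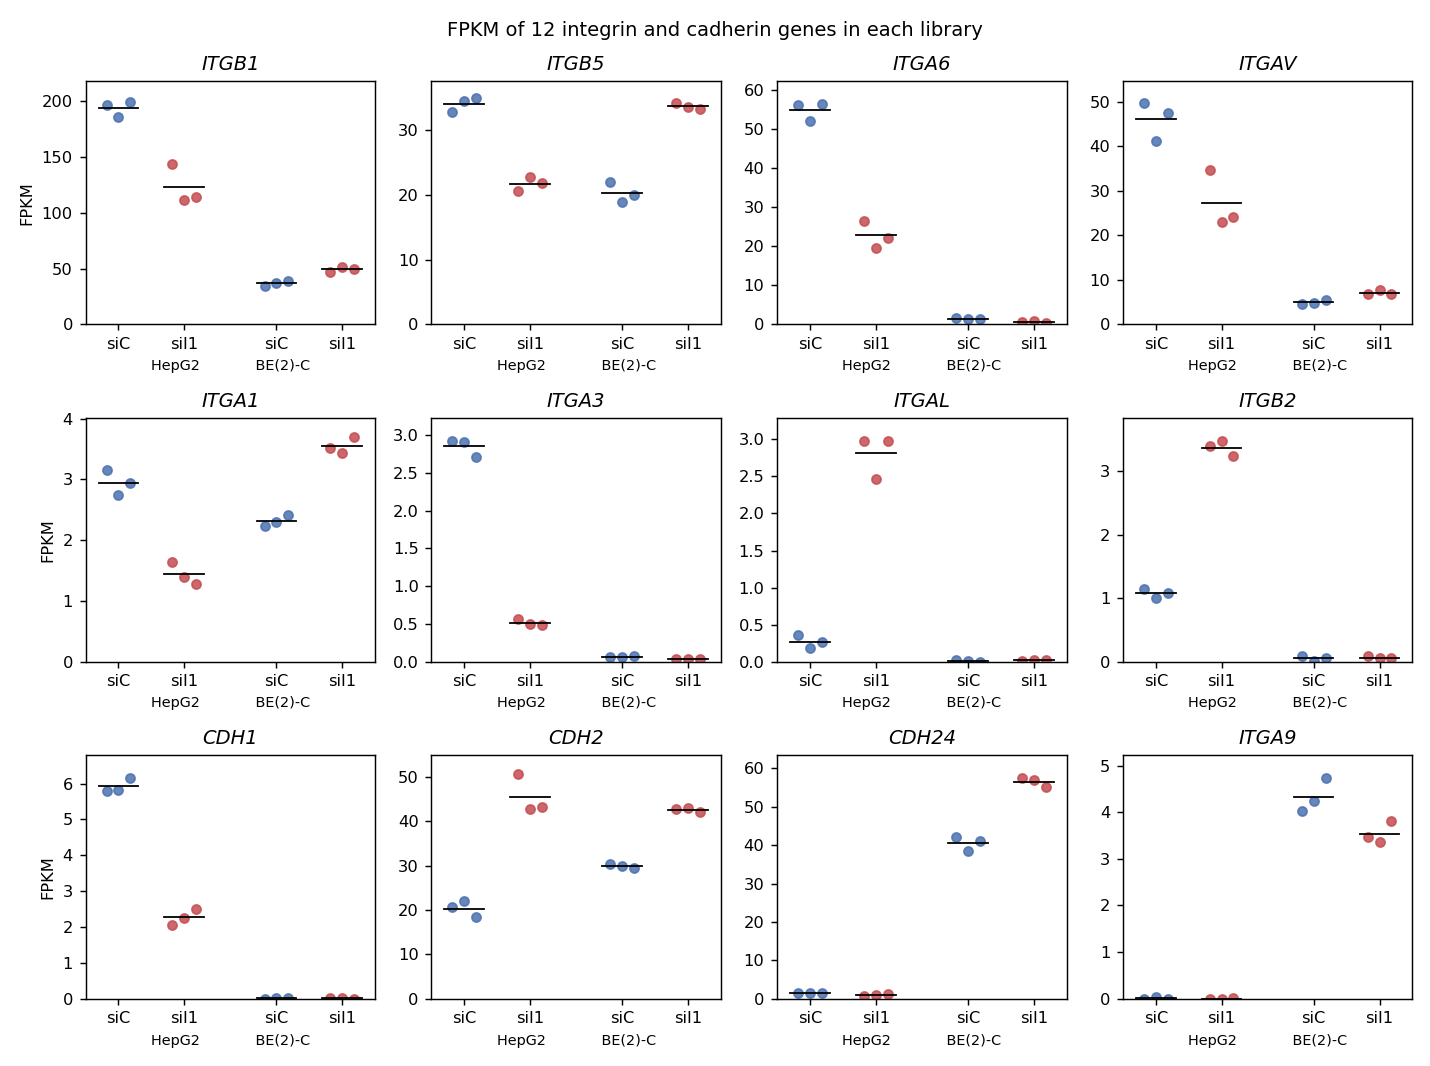
FPKM of 12 integrin and cadherin genes in each of the 12 libraries, as points, with a line at the mean of each group of 3 (blue siC, red siI1). ITGB1, ITGB5, ITGAV and ITGA1 were lower in the siI1 libraries of HepG2 and higher in those of BE(2)-C; the lines were normalized in separate tables, so heights compare within a line.

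Among the laminin receptors, ITGA6 (chr2:172427354-172506459, plus strand) was the most abundant alpha subunit of HepG2 in siC. It was measured at 56.3, 52.1 and 56.6 FPKM in siC and 26.6, 19.7 and 22.1 in siI1, and all siI1 libraries were below all siC libraries (log2 fold change −1.28 ± 0.11 SE, limma adjusted p = 1.51e-04, and −1.39 without siI1 replicate 1). ITGA6 was also the only member called lower in BE(2)-C, at 1.52, 1.49 and 1.46 FPKM in siC and 0.713, 0.769 and 0.397 in siI1. The groups did not overlap, siI1 replicate 3 was the lowest library, and the counts were small (36 to 143 fragments; log2 fold change −1.17 ± 0.23 SE, limma adjusted p = 0.0106). ITGA3, a further laminin receptor subunit, fell from 2.93, 2.92 and 2.71 FPKM in HepG2 siC to 0.558, 0.504 and 0.488 in siI1. All depleted libraries were far below the controls (log2 fold change −2.26 ± 0.14 SE, limma adjusted p = 3.55e-05, and −2.31 without siI1 replicate 1). ITGA3 had at most 10 fragments in any BE(2)-C library and was not tested there. Over ITGA3, ITGA6 and ITGA7 together, the summed level was 57.9 ± 2.46 FPKM (SD, n = 3) in HepG2 siC and 23.5 ± 3.56 in siI1.

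ITGA6 was called lower and CDH2 higher in both lines, the only members for which the calls of the lines agreed, and the sequences around their starts are shown as a reference for these 2 genes. They run from 250 bases before to 50 bases after a start, from RefSeq (GRCh38.p14), 5′ to 3′ on the gene's strand. Capitals mark CACCTG (or CAGGTG, the same site on the other strand), the core letters of E-boxes read by the SNAI and ZEB repressors, and TGANTCA. AP-1 sites hold C or G in the place of N, whereas any base was accepted there, so a TGANTCA match need not be an AP-1 core.
ITGA6, upstream start, chr2:172427086-172427385, plus strand: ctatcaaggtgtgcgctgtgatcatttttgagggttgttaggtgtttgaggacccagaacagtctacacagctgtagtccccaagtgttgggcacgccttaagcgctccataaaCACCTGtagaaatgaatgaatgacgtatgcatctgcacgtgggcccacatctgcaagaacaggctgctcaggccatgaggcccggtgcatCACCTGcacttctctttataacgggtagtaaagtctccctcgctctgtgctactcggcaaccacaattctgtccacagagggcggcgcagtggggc
CDH2, upstream start, chr18:28177081-28177380, minus strand: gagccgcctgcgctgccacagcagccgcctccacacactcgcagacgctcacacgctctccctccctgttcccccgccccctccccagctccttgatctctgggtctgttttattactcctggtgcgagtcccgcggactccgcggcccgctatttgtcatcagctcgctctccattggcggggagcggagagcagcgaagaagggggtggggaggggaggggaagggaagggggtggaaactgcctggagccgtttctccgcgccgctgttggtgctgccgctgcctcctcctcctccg
CDH2, downstream start, chr18:28036592-28036891, minus strand: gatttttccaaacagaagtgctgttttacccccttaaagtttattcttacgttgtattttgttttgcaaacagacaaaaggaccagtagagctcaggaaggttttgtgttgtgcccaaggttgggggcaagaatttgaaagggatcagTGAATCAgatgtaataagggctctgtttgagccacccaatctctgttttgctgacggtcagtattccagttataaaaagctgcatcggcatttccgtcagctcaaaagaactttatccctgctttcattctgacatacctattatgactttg
The upstream window of ITGA6 held CACCTG at 2 places, which begin 136 and 46 bases before the start. A second ITGA6 window (chr2:172427336-172427635, GC content 72.0%), not printed, held neither motif. The upstream CDH2 window held neither motif and had a GC content of 67.0%, whereas the downstream one held 1 TGANTCA, 102 bases before its start, at a GC content of 40.7%. That match reads TGAATCA, with A in the place of N, and is therefore not the AP-1 core. Of all 35116 windows of this length in the table, 20.6% held CACCTG on either strand and 7.71% held TGANTCA. The table covered 29 of the 49 members with 45 windows, of which 6 held CACCTG (in CDH4, CDH23, ITGA6, ITGA11, ITGB5 and ITGB6) and 4 held TGANTCA (in CDH2, CDH12, CDH18 and ITGA5). CDH1 had no window in it, nor had CDH24, ITGA3, ITGAL and ITGB2, so the starts of these genes were not searched. A match is a description of the letters alone, and the gene-level values do not tell which start was used.

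All 3 collagen receptor subunits tested in HepG2 were called lower. ITGA10 stood at 1.24, 1.16 and 1.27 FPKM in siC and 0.105, 0.185 and 0.130 in siI1, a decrease seen in every depleted library (log2 fold change −2.48 ± 0.22 SE, limma adjusted p = 1.89e-04, and −2.37 without siI1 replicate 1). ITGA1 was found at 3.15, 2.75 and 2.93 FPKM in HepG2 siC and 1.64, 1.39 and 1.28 in siI1. The groups were separate, with siI1 replicate 1 the highest of the depleted libraries (log2 fold change −0.99 ± 0.13 SE, limma adjusted p = 0.00103, and −1.08 without it). BE(2)-C held ITGA1 at 2.23, 2.30 and 2.41 FPKM in siC and 3.51, 3.43 and 3.70 in siI1, with all siI1 libraries above the controls (log2 fold change 0.59 ± 0.08 SE, limma adjusted p = 0.00258). ITGA2 was not named by the rule for genes and is given because of its level, 40.2, 34.8 and 41.2 FPKM in HepG2 siC and 15.4, 10.3 and 10.2 in siI1. It was lower in every depleted library, with siI1 replicate 1 nearest to the controls (log2 fold change −1.71 ± 0.17 SE, limma adjusted p = 2.57e-04, and −1.91 without it). Together ITGA1, ITGA2, ITGA10 and ITGA11 summed to 42.9 ± 3.67 FPKM (SD, n = 3) in HepG2 siC and 13.5 ± 3.13 in siI1. For BE(2)-C, where ITGA11 (mean 2.05 FPKM in siC and 2.24 in siI1, not called) and ITGA1 made up most of this sum, the values were 4.41 ± 0.256 and 5.81 ± 0.197.

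ITGAV, the alpha subunit of vitronectin and other RGD receptors, was the second most abundant alpha subunit of HepG2 in siC and the most abundant in siI1, and the most abundant of BE(2)-C in both groups. Its HepG2 levels were 49.8, 41.1 and 47.6 FPKM in siC and 34.8, 23.0 and 24.0 in siI1. The groups did not overlap, although siI1 replicate 1 lay about midway between the other depleted libraries and the controls (log2 fold change −0.78 ± 0.16 SE, limma adjusted p = 0.00786, and −0.97 without it). BE(2)-C held ITGAV at 4.65, 4.75 and 5.57 FPKM in siC and 6.83, 7.71 and 6.87 in siI1, with every depleted library higher (log2 fold change 0.51 ± 0.09 SE, limma adjusted p = 0.00719). ITGA8, another RGD-binding subunit, was close to absent in BE(2)-C siC (0.0370, 0.0207 and 0 FPKM) and low in siI1 (0.309, 0.273 and 0.182). All siI1 libraries were higher, on 0 to 36 fragments (log2 fold change 1.57 ± 0.33 SE, limma adjusted p = 0.0137), and the call was lost without siI1 replicate 1 (limma adjusted p = 0.0522) or siI1 replicate 2 (0.0527). ITGA8 entered the test through siI1 libraries alone, so that its values count only as a description. ITGA9, a receptor of tenascin and VCAM1, was the second most abundant alpha subunit of BE(2)-C in siC, at 4.02, 4.24 and 4.73 FPKM in siC and 3.46, 3.36 and 3.80 in siI1. Its siI1 libraries were all below the siC libraries, but the difference missed the threshold (log2 fold change −0.28 ± 0.09 SE, limma adjusted p = 0.0588; called lower with a filter of 1 FPKM, adjusted p = 0.0380, or of 0.5 FPKM, 0.0428, and with voom, 0.00850).

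Set against each other per length, ITGB1 exceeded its alpha partners by more in the depleted libraries. The ratio of ITGB1 to the summed FPKM of ITGA1 to ITGA11 and ITGAV was 1.28, 1.38 and 1.31 in HepG2 siC and 1.81, 2.00 and 1.95 in HepG2 siI1. All depleted libraries were above all controls. The BE(2)-C ratios were 2.24, 2.42 and 2.24 in siC and 2.59, 2.77 and 2.77 in siI1, again without overlap. The partner sum itself was 147 ± 10.4 FPKM (SD, n = 3) in HepG2 siC and 64.5 ± 13.1 in siI1, and 16.0 ± 1.04 and 18.2 ± 0.415 in BE(2)-C. These ratios and sums are given as descriptions and were not tested.

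Both subunits of the leukocyte receptor LFA-1 increased in HepG2, where most of the called integrins decreased. ITGAL (chr16:30472658-30523567, plus strand) was at 0.358, 0.181 and 0.262 FPKM in siC and 2.98, 2.47 and 2.98 in siI1. The depleted libraries lay well above the controls, on 16 to 261 fragments (log2 fold change 3.01 ± 0.22 SE, limma adjusted p = 8.33e-05, and 2.97 without siI1 replicate 1). ITGB2 (chr21:44885953-44931989, minus strand), its beta subunit, was at 1.15, 1.00 and 1.08 FPKM in siC and 3.39, 3.48 and 3.24 in siI1. All depleted libraries were higher (log2 fold change 1.56 ± 0.11 SE, limma adjusted p = 7.14e-05, and 1.56 without siI1 replicate 1). ITGAE, the partner of ITGB7 in a receptor for CDH1, was at 1.90, 2.33 and 1.88 FPKM in HepG2 siC and 3.11, 3.38 and 3.70 in siI1. It was higher in all depleted libraries of HepG2 (log2 fold change 0.71 ± 0.13 SE, limma adjusted p = 0.00365, and 0.77 without siI1 replicate 1), whereas its groups overlapped in BE(2)-C (log2 fold change −0.24 ± 0.14 SE, limma adjusted p = 0.256). ITGB7 had at most 5 fragments in any library of either line and was not tested.

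Leukocyte markers were summed and counted beside these integrins. Of 10 markers, 5 were tested in HepG2, 1 of which was called higher, CD14, the most abundant one in siI1 (mean 0.765 FPKM in siC and 2.15 in siI1, log2 fold change 1.38). Without siI1 replicate 2, LAPTM5 was also called higher (1.17, 0.231 and 0.571 FPKM in siI1 against 0.118, 0.179 and 0.249 in siC). In the other direction, 1 marker was called lower without siC replicate 3, and 0 in the main fit. SPI1, not tested, was at 0, 0 and 0 FPKM in siC and 1.18, 0.0664 and 0.398 in siI1. Summed over the list, the level was 3.06, 3.06 and 2.46 FPKM upon control transfection and 6.71, 3.74 and 4.47 FPKM upon knockdown, so that every depleted library was higher and siI1 replicate 1 was the highest. PTPRC, the pan-leukocyte marker, was at 0, 0 and 0 FPKM in siC and 0.0530, 0 and 0.00894 in siI1, with its highest level in siI1 replicate 1. No marker was at 0 in all 6 HepG2 libraries, and the part of leukocyte RNA in the ITGAL and ITGB2 values was not tested. Both leukocyte markers tested in BE(2)-C were lower, CORO1A (−1.79) and CD14 (−1.20, lost without siC replicate 1 or 3 or siI1 replicate 1 or 3, adjusted p up to 0.0754), PTPRC, CD3D and MS4A1 were at 0 in every library, and neither ITGAL nor ITGB2 passed the filter.

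Cadherins shifted from CDH1 towards CDH2 in HepG2. CDH1 (chr16:68737292-68835537, plus strand), the cadherin of epithelial junctions, was at 5.80, 5.82 and 6.16 FPKM in siC and 2.05, 2.26 and 2.49 in siI1. Every depleted library was below every control (log2 fold change −1.35 ± 0.10 SE, limma adjusted p = 7.42e-05, and −1.28 without siI1 replicate 1). CDH2 (chr18:27932879-28177946, minus strand), the neural and hepatocyte cadherin, was at 20.6, 22.0 and 18.4 FPKM in siC and 50.7, 42.7 and 43.3 in siI1. The depleted libraries were all higher, siI1 replicate 1 most so (log2 fold change 1.16 ± 0.09 SE, limma adjusted p = 1.15e-04, and 1.08 without it). The ratio of CDH1 to CDH2 was 0.281, 0.265 and 0.335 upon control transfection and 0.0404, 0.0529 and 0.0576 upon knockdown, with group means of 0.293 ± 0.0365 and 0.0503 ± 0.00890 (SD, n = 3). The groups were separate on this ratio, and CDH2 was the more abundant of both in every HepG2 library.

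CDH2 was also higher in BE(2)-C, where it stood at 30.4, 30.0 and 29.6 FPKM in siC and 42.8, 43.0 and 42.0 in siI1. The replicates were close and the groups far apart (log2 fold change 0.51 ± 0.04 SE, limma adjusted p = 2.85e-04). CDH1 had at most 2 fragments in any BE(2)-C library and was not tested. The qRT-PCR primers listed by the study include the following pair for CDH2, written 5′ to 3′.
CDH2 sense: ccatcactcggcttaatggt
CDH2 antisense: gatgatgatgcagagcagga
Matched to GENCODE v44, the sense primer spans the junction of exons 12 and 13 and the antisense primer lies in exon 13 (chr18:27985007-27985026), which gives an amplicon of 245 bases present in 8 of 11 annotated CDH2 transcripts.

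Other cadherins were present mainly in one of the lines. CDH24 (chr14:23047062-23057538, minus strand), a type II classical cadherin, was the most abundant cadherin of BE(2)-C at 42.2, 38.6 and 41.1 FPKM in siC and 57.6, 57.0 and 55.2 in siI1. All depleted libraries were higher (log2 fold change 0.48 ± 0.05 SE, limma adjusted p = 7.45e-04). In HepG2 the same gene was at 1.37, 1.37 and 1.47 FPKM in siC and 0.809, 0.953 and 1.28 in siI1, lower in each depleted library but short of the threshold (log2 fold change −0.45 ± 0.19 SE, limma adjusted p = 0.0917; called lower without siI1 replicate 3, adjusted p = 0.0367, with voom, 0.0482, and with equal sums of FPKM, 0.0291). CDH18, a type II cadherin of the nervous system, was at 0.560, 0.466 and 0.604 FPKM in BE(2)-C siC and 1.23, 1.40 and 1.45 in siI1. The depleted libraries were all higher, on 29 to 98 fragments (log2 fold change 1.18 ± 0.16 SE, limma adjusted p = 0.00261). CDH10, a further neural type II cadherin outside the rule for named genes and given as the last of the 4 cadherins called in BE(2)-C, was at 1.69, 2.00 and 2.48 FPKM in siC and 3.59, 4.10 and 4.25 in siI1, also without overlap (log2 fold change 0.93 ± 0.15 SE, limma adjusted p = 0.00443). CDH16, the kidney-type cadherin, was at 3.88, 3.93 and 3.12 FPKM in HepG2 siC and 1.98, 2.12 and 1.86 in siI1, lower in all depleted libraries (log2 fold change −0.84 ± 0.12 SE, limma adjusted p = 0.00178, and −0.83 without siI1 replicate 1), and at 0 in BE(2)-C.

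Added up over all 23 cadherins, the level was higher in the siI1 libraries of both lines, as a description with no test. HepG2 siC libraries reached 32.3, 33.6 and 29.6 FPKM and HepG2 siI1 libraries 56.0, 49.1 and 49.8. The sum in BE(2)-C was 76.9, 72.8 and 75.6 in siC and 107, 108 and 105 in siI1. No siI1 library of either line overlapped with the siC libraries. CDH2 accounted for 63.8 ± 1.60% (SD, n = 3) of the HepG2 sum in siC and 88.1 ± 2.06% in siI1, and CDH1 for 18.7 ± 1.86% and 4.42 ± 0.694%. The composition of BE(2)-C differed less between the groups, with CDH24 at 54.1 ± 0.964% in siC and 53.2 ± 0.574% in siI1 and CDH2 at 40.0 ± 1.14% and 40.1 ± 0.119%.

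**Figure D3:**
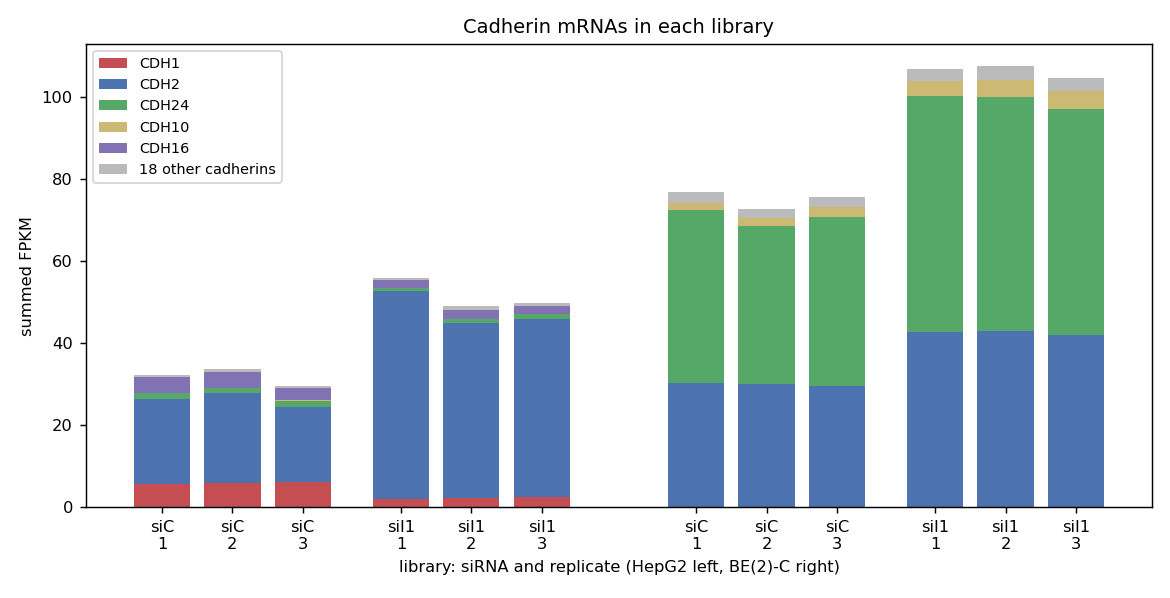
Summed FPKM of the 23 cadherins in each library, split into CDH1, CDH2, CDH24, CDH10, CDH16 and the 18 others. In HepG2 the CDH1 part shrank and the CDH2 part grew in the siI1 libraries, and in BE(2)-C the CDH2 and CDH24 parts both grew; the lines were normalized in separate tables.

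The change upon knockdown was called different between the lines for 8 of the 11 members tested in both. The difference, the log2 fold change in HepG2 minus that in BE(2)-C, was fitted with limma over all 12 libraries, and 5 members were more negative and 3 more positive in HepG2. One of the 3, ITGB3, entered the BE(2)-C test through siC libraries alone and counts only as a description, which leaves 7 differences. Among all protein-coding genes tested in both lines, 27.5% were called more negative and 22.4% more positive. Opposite calls of the lines are given as a description, without their share over all genes. Of the 6 members called in both lines, 4 were lower in HepG2 and higher in BE(2)-C. These were ITGB5 (difference −1.38 ± 0.09 SE, limma adjusted p = 8.27e-07), ITGB1 (−1.09 ± 0.12 SE, limma adjusted p = 5.14e-05), ITGAV (−1.29 ± 0.20 SE, limma adjusted p = 4.25e-04) and ITGA1 (−1.58 ± 0.15 SE, limma adjusted p = 1.06e-05). Without HepG2 siI1 replicate 1, these differences were −1.34, −1.20, −1.48 and −1.68. CDH2, higher in both lines, was more so in HepG2 (0.65 ± 0.10 SE, limma adjusted p = 5.10e-04, and 0.58 without that library). The remaining differences were those of CDH24 (−0.93 ± 0.17 SE, limma adjusted p = 0.00107), ITGAE (0.95 ± 0.19 SE, limma adjusted p = 0.00219) and ITGB3 (1.93 ± 0.54 SE, limma adjusted p = 0.0153), the last on at most 22 fragments in any library. For ITGA6, lower in both lines, no difference was detected (−0.10 ± 0.25 SE, limma adjusted p = 0.777; called more negative in HepG2 with a pseudocount of 1, −0.62, adjusted p = 0.00617). The difference of ITGA7, which entered the HepG2 test through siI1 libraries alone, was not called (1.18 ± 0.48 SE, limma adjusted p = 0.0689). It was called more positive in HepG2 without a filter (adjusted p = 0.0264), without the variance trend (0.0137) and with separate errors and a normal p (0.0282).

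**Figure D4:**
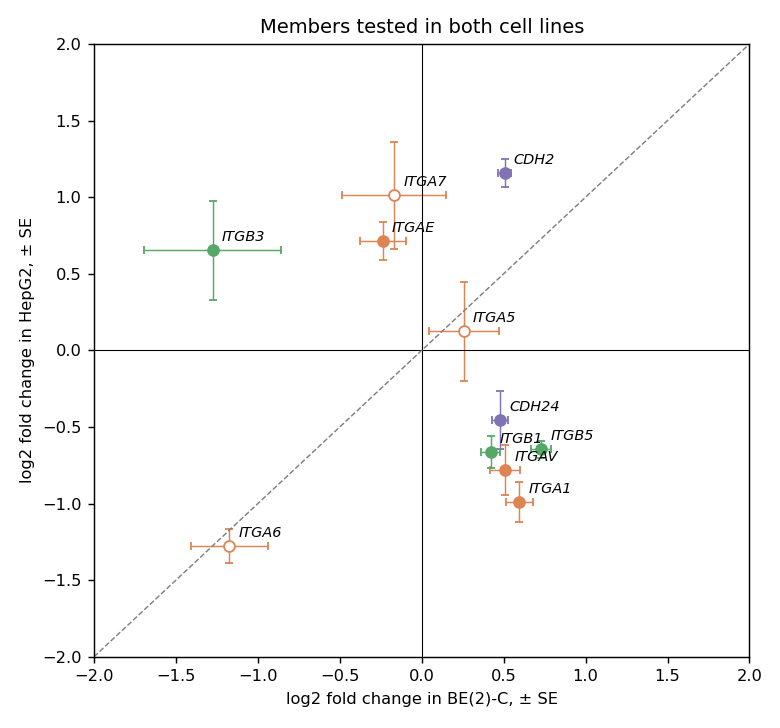
log2 fold changes (± SE) of the 11 members tested in both lines, BE(2)-C on the x axis and HepG2 on the y axis; the dashed line marks equal changes. Filled points have a limma adjusted p below 0.05 for the difference, and ITGB1, ITGB5, ITGAV and ITGA1 lie in the lower right part, lower in HepG2 and higher in BE(2)-C.

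Further genes of adhesion were counted by list, to be read beside the shares and medians of all tested protein-coding genes given with the members. Of 26 integrin adaptors and focal adhesion genes, 24 were tested in HepG2, with 10 lower and 6 higher (12 and 7 without siI1 replicate 1; median −0.13). The smallest p among the lower ones belonged to VASP (−1.17), an actin-elongation factor, and ACTN1 (−1.02), an actin crosslinker, and among the higher ones to TNS1 (1.96) and ZYX (0.49). Of the same genes, 25 were tested in BE(2)-C, with 9 lower, led by ILK (−0.74), a kinase-like adaptor of beta subunits, and FLNA (−0.57), and 1 higher, TLN2 (0.45), while ITGB1 and ITGB5 themselves were higher (median −0.13). The count of 9 became 4 to 7 when any one BE(2)-C library was left out, with the least without siI1 replicate 2. Of 32 integrin ligands, 24 were tested in HepG2, with 8 lower and 8 higher (8 and 7 without siI1 replicate 1; median −0.16). One of the 8 lower ligands, THBS2, entered the test through siC libraries alone and counts only as a description. ICAM1, a ligand of LFA-1, was at 38.4, 40.1 and 39.6 FPKM in HepG2 siC and 5.39, 6.49 and 5.75 in siI1, and so was lower where ITGAL and ITGB2 were higher (log2 fold change −2.73 ± 0.08 SE, limma adjusted p = 2.90e-06, and −2.67 without siI1 replicate 1). ICAM2 (−0.67, limma adjusted p = 0.132) and ICAM3 (−0.18, limma adjusted p = 0.141) were not called in HepG2. The laminin and nidogen genes among these ligands are given as a description. Of those tested in HepG2, LAMB1 was lower (−0.93), 5 were higher, led by NID1 (1.27) and LAMB2 (0.80), and LAMB3 and LAMC3 were not called. Among the 5, LAMA3 lost its call without siI1 replicate 1 (limma adjusted p = 0.0859). BE(2)-C had 14 ligands tested, with 2 lower, LAMA5 (−0.90) and ICAM3 (−0.63), and 5 higher, led by FN1 (2.08; lower in HepG2, −0.85) and NID2 (0.87; median 0.13).

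Beside the cadherins, 12 of 15 catenin and adherens junction genes were tested in HepG2, with 4 lower and 5 higher (4 and 6 without siI1 replicate 1; median 0.07). CTNNB1, which binds the tail of CDH1 and CDH2, was lower (−0.62), as was CTNNAL1 (−0.25), and JUP, its relative in junctions and desmosomes, was higher (0.54), as was NECTIN4 (1.43). The same number was tested in BE(2)-C, with 2 lower, NECTIN2 (−0.77) and ARVCF (−0.44), and 3 higher, led by NECTIN1 (0.69) and CTNNA2 (0.46; median 0.07). Of 14 CDH1 repressors and epithelial factors, 7 were tested in HepG2, where the repressors ZEB1 (−0.74) and SNAI1 (−0.87) were lower, the log2 fold changes of SNAI2 (0.76) and SNAI3 (0.91) were positive but not called in the main fit, and EPCAM was higher (0.72; median 0.09). BE(2)-C also had 7 tested, with TWIST1 (0.27) and SNAI2 (0.40) higher and TCF4 (−0.30) lower (median 0.12). Of 33 desmosomal and other cadherin superfamily genes, 15 were tested in HepG2, with 6 lower, led by DSG2 (−1.03) and FAT1 (−1.11), and 6 higher, led by CLSTN3 (1.28) and CELSR1 (1.27; 6 and 5 without siI1 replicate 1; median −0.12). BE(2)-C had 20 of them tested, with 2 lower, PCDH19 (−0.94) and CLSTN3 (−0.30), and 6 higher, led by CLSTN2 (0.52) and PCDH10 (0.63; median 0.19). Values in parentheses are log2 fold changes of genes called with limma, except where stated. Among the genes named here, SNAI1 lost its call without siC replicate 2 or 3 or siI1 replicate 2 of HepG2 (adjusted p up to 0.0639). TCF4 lost its call without any one BE(2)-C library except siC replicate 1 (adjusted p up to 0.0814), CLSTN3 likewise except siC replicate 2 (up to 0.146), and SNAI2 without siI1 replicate 3 (0.0616). The 6 higher superfamily genes of BE(2)-C became 3 without siC replicate 2 and 2 without siI1 replicate 2 or 3. The 4 lower junction genes of HepG2 became 2 without any one library except siI1 replicate 1, and the 5 higher ones 3 without siC replicate 2 or 3.

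Mesenchymal and endothelial markers are to be read beside the shares called among all tested protein-coding genes. These were 30.5% lower and 25.3% higher in HepG2, and 19.9% and 15.5% in BE(2)-C. Of 10 mesenchymal markers, 5 were tested in HepG2 and 1 was called, YAP1, the most abundant in siC, which was lower (54.8, 49.2 and 55.6 FPKM in siC and 12.2, 9.22 and 8.70 in siI1, log2 fold change −2.41). BE(2)-C had 7 tested and 2 higher, LUM (1.08) and DCN (0.66), while VIM was the most abundant (mean 43.3 FPKM in siC and 42.2 in siI1, not called). Their summed level was 67.9, 61.2 and 68.7 FPKM in HepG2 siC and 25.9, 23.7 and 20.3 in siI1, and 75.4, 71.2 and 71.0 and 82.1, 77.2 and 81.9 in BE(2)-C. YAP1 carried the lower HepG2 sum, and without it the sums lay between 11.7 and 14.5 FPKM in all 6 libraries, with the groups overlapping. Most of this remainder was WWTR1 alone (mean 11.6 FPKM in HepG2 siC and 11.2 in siI1, not called), so it says little about the other markers. VIM (0.344, 2.33 and 0.102 FPKM), COL1A1 (0.143, 0.748 and 0.213) and COL1A2 (0, 0.474 and 0.0134) were highest in siI1 replicate 2 among the HepG2 siI1 libraries. Endothelial markers were near 0, with 2 of 8 tested in HepG2, TIE1 lower (−1.68), and none of 8 in BE(2)-C. Their sums in HepG2 were 0.816, 0.910 and 1.16 FPKM in siC and 0.332, 0.339 and 0.369 in siI1, TIE1 was the most abundant and EMCN was at 0. The part of these genes in the changes of CDH1 and CDH2 was not tested.

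Some members share exon sequence with other genes, from which reads may be hard to separate. ITGA1 shares 499 exon bases with PELO and 571 with the pseudogene RPL17P21 on its own strand, and 1385 with ITGA2-AS1 on the other strand. ITGB3 shares 33.2% of its exon bases with another protein-coding annotation on its strand. Opposite-strand overlaps covered 5.71% of the exon bases of CDH1, 3.58% of CDH2, 2.75% of ITGB1 and 4.15% of ITGB2. They were larger for ITGAL (6.28%), ITGAE (7.65%, in part with the protein-coding HASPIN) and ITGA9 (9.23%). CDH24, CDH10, CDH18, ITGB5, ITGA2 and ITGA3 had no such overlap in GENCODE v44. The libraries were strand-specific per the methods, but the strand setting of the counting is not given in the sources used here.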

How the data were processed

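Poly-A RNA of HepG2 and BE(2)-C was sequenced in 12 libraries. Per the methods and processing notes, the authors trimmed reads with cutadapt (1.14), mapped them to hg38 with HISAT2 (2.1.0) and SAMtools (1.5), counted genes with featureCounts (1.5.3) and tested with edgeR (3.30.3). The authors deposited FPKM values per library, taken as FPKM because each value times gene length is a whole multiple of 1 step per library (tolerance 0.01 fragments). Gene length, in bases, is a further deposited column. The authors' own fold changes, p-values and FDR are in the same tables and were not used. No column of library values was left unmatched.

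Here limma (3.58.1, R 4.3.3) was run per line on log2(FPKM + 0.1) with its trend option, and p-values were adjusted by Benjamini-Hochberg across the genes tested (19436 in HepG2, 18656 in BE(2)-C, 15362 for the difference), after a filter of 0.1 FPKM in 3 of 6 libraries. The design listed this test for FPKM. The code was tested on simulated data. Fragments were recovered from FPKM, gene length and the step of each library. With 3 against 3 libraries, an exact permutation p cannot be below 0.1. Alternatives covered the pseudocount, filter, trend, scaling, thresholds, voom, a replicate block and leaving out each library.

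Named genes were IGF2BP1, CDH1, CDH2, up to 3 called members per line, family and direction by smallest p, the 2 most abundant members per line and family, members called in both lines, and up to 2 called genes per further list, line and direction. The members and lists were chosen with earlier results of these data known. List symbols were matched by name, and 2 (CCN1 and CCN2) by Ensembl ID to older symbols. Positions are from GENCODE v44, matched by Ensembl ID on hg38. Protein motifs were not searched. Figures were drawn with matplotlib (3.10.9).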

Additional observations from a re-analysis of the deposited data

Results flagged for a closer look

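The log2 fold change upon IGF2BP1 knockdown was called different between the cell lines for 8 members, each by the limma interaction over all 12 libraries with an adjusted p below 0.05. The difference, HepG2 minus BE(2)-C, was −1.38 ± 0.09 SE, limma adjusted p = 8.27e-07 for ITGB5. ITGA1 had the most negative difference (−1.58 ± 0.15 SE, limma adjusted p = 1.06e-05). For ITGB1 it was −1.09 ± 0.12 SE, limma adjusted p = 5.14e-05, and for ITGAV −1.29 ± 0.20 SE, limma adjusted p = 4.25e-04. CDH24 followed with −0.93 ± 0.17 SE, limma adjusted p = 0.00107. CDH2 was higher in both lines and more so in HepG2 (0.65 ± 0.10 SE, limma adjusted p = 5.10e-04). ITGAE was called in HepG2 alone, and its difference was 0.95 ± 0.19 SE, limma adjusted p = 0.00219. ITGB3 was called in neither line, and its difference of 1.93 ± 0.54 SE, limma adjusted p = 0.0153 rests on 3 to 15 fragments per library in HepG2 and 0 to 22 in BE(2)-C, where it entered the test through siC libraries alone, so that this value is a description. Each of these 8 calls was kept in every alternative fit in which the gene was tested. In the main fit, ITGB3 did not reach an adjusted p below 0.01, and CDH2, CDH24 and ITGAE did not reach an absolute difference of 1.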

How the results depend on the processing

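All 15 calls among HepG2 members, 9 of 10 in BE(2)-C and all 8 differences between the lines were kept under every alternative fit in which the gene was tested. The exception was ITGA8 in BE(2)-C, lost without siI1 replicate 1 or 2. A minimum absolute log2 fold change of 1 left 5 members lower and 3 higher in HepG2, 1 lower and 2 higher in BE(2)-C, and 4 differences more negative and 1 more positive in HepG2, fewer by construction. In BE(2)-C, the members called lower (1) became 2 with a filter of 1 FPKM or of 0.5 FPKM (the latter chosen after seeing the data), 3 with voom and 0 at an adjusted p below 0.01. ITGA9 was among them with both filters and with voom. Without a filter, 12 differences were more negative and 6 more positive in HepG2, with more genes tested. Leaving out single libraries gave 11 to 12 members lower and 4 higher in HepG2, 1 lower and 8 to 9 higher in BE(2)-C. The mean CDH1 to CDH2 ratio in HepG2 then ranged from 0.273 to 0.308 in siC and from 0.0466 to 0.0552 in siI1. Equal sums of FPKM moved the median of all HepG2 genes by −0.15 and gave 5835 lower and 3211 higher genes instead of 4463 and 4250; for the difference the shift was −0.17, with 4532 and 2039 instead of 3337 and 2843. Median centring turned the balance the other way, with 3693 lower and 5015 higher genes in HepG2, 2390 and 2872 in BE(2)-C (main fit 2763 and 2489) and 2964 and 3228 for the difference, so the shares of all genes depend on the scaling. All directions given for called members held under both. With the replicate number as a block (replicate block), 11 and 4 members were called in HepG2, 1 and 9 in BE(2)-C and 5 and 3 for the difference. Replicate numbers did not pair the libraries, as same-numbered deviations correlated at 0.06, 0.04 and −0.01 in HepG2 and 0.02, −0.01 and −0.00 in BE(2)-C. IGF2BP1 was lower in every alternative. No called member changed its sign. Some log2 fold changes that were not called did so with single libraries left out, namely ITGA5 in HepG2 (−0.0589 to 0.361), CDH4 (−0.119 to 0.258), ITGA4 (−0.247 to 0.0117) and CDH22 (−0.41 to 0.0278) in BE(2)-C, and the differences between the lines for ITGA5 (−0.315 to 0.104) and ITGA6 (−0.356 to 0.0471, and 0.0144 with a pseudocount of 0.01). Depth limits members with few fragments, such as ITGA8 and ITGB3.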
